A study of Mus musculus with 16 samples.

Results

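Expression of 8 tuft cell genes was examined across 16 RNA-seq libraries of the mouse gastric corpus, chosen by symbol from the 24964 genes of the count table. They were Trpm5, Gnat3, Pou2f3, Dclk1, Avil, Ptgs1, Il25 and Sh2d6. Of these, 7 had a row in the table and 6 had enough counts to be tested. Sh2d6, which encodes an SH2 domain protein, had no row under that symbol, so its expression was not analysed here. Il25 was too low to read, with 0 to 8 counts in a library. On mm10, Trpm5 lies at chr7:143069153-143094642 (minus strand), Gnat3 at chr5:17962549-18019834 (plus), Pou2f3 at chr9:43123939-43210369 (minus) and Dclk1 at chr3:55242364-55539068 (plus). Avil lies at chr10:127000709-127020994, Ptgs1 at chr2:36230426-36252272 and Il25 at chr14:54932695-54935837, all on the plus strand.

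Tuft cells are rare, solitary epithelial cells with a brush of long microvilli. They are known as chemosensory sentinels of mucosal surfaces: ligands act on receptors coupled to taste-type G proteins, phospholipase C releases calcium, the cation channel TRPM5 opens, and the cell can release eicosanoids, acetylcholine and interleukin-25 (IL-25). IL-25 acts on type 2 innate lymphocytes, which make IL-13, and IL-13 in turn is known to drive the expansion of tuft and mucous cells in the intestine. In the stomach, tuft cells lie scattered in the corpus glands and become more frequent in some forms of metaplasia.

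Female mice were sampled at 8 weeks of age with a 4 mm biopsy along the lesser curvature, and there were 4 libraries in each of 4 groups. WT-S and WT-A were wild-type C57BL/6 mice, and TTP-S and TTP-A were congenic C57BL/6 mice with the TTPΔARE genotype. TTP is tristetraprolin, the product of Zfp36, a protein that destabilises transcripts carrying AU-rich elements, and in TTPΔARE the element in the Zfp36 transcript itself is deleted. In the A groups the labels give adrenalectomy, the removal of the adrenal glands, as the cause of gastric inflammation. In the S groups they name spasmolytic polypeptide-expressing metaplasia (SPEM), a mucous lineage of injured glands, and do not say what S stands for or whether these mice were operated on. A was therefore compared with S within each genotype, the genotypes were compared within A and within S, and the change from S to A was compared between genotypes. No label says which libraries came from separate animals, so the p-values measure the spread between libraries, which may be in part technical.

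Library totals ran from 17453930 to 25849472 counts. Zfp36 lay at 55.1 to 88.6 CPM (counts scaled by library size) in the 8 wild-type libraries and at 110 to 131 CPM in the 8 TTPΔARE libraries, without overlap. Libraries WT-A 3 and WT-A 4 stood apart: the deviation of their genes from the gene medians followed transcript GC content with a Spearman rho of 0.73 and 0.76, against values from -0.31 to 0.17 in the other 14 libraries, so counts were also made without these 2. Transcripts of squamous epithelium, which lines the forestomach and not the corpus, varied widely, with a summed level of 9 markers from 1.82 CPM in WT-S 2 to 1000 CPM in WT-A 2. The markers of simple epithelium summed to 6370 to 8540 CPM in every library.

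The promoters of the members are shown first because POU2F3, the transcription factor that tuft cells require, belongs to the octamer-binding POU family. RefSeq promoter windows, reaching from 250 bases before to 50 after a start site on GRCm38 (mm10), were matched for 6 of the 8 genes, with 2 windows for Dclk1, and Pou2f3 and Il25 have no entry. The classical octamer, ATGCAAAT, was searched on both strands and was found in 0 of these 7 windows, against 1.74% of all 32851 windows. Its first 7 bases, ATGCAAA, chosen after the octamer search, were found on either strand in 4.63% of all windows and 2 times in the window of Avil. They begin 15 and 115 bases before the Avil start site. A match is a string of letters and not a known binding site, and no match says only that the letters are not in the window. The 250 bases before the start are printed 5′ to 3′ on the gene's strand for the channel gene Trpm5, for both start sites of Dclk1, whose transcripts the gene counts do not separate, and for Avil, with the 7-base matches in capitals. The Trpm5 stretch lies at chr7:143094643-143094892 (minus strand), the Dclk1 stretches at chr3:55242114-55242363 and chr3:55461478-55461727 (plus strand), and the Avil stretch at chr10:127000459-127000708 (plus strand).
Trpm5: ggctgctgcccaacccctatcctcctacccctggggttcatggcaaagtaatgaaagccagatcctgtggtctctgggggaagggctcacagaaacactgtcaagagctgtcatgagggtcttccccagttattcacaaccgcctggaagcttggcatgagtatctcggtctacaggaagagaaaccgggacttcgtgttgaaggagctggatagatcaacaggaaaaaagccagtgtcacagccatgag
Dclk1, upstream start: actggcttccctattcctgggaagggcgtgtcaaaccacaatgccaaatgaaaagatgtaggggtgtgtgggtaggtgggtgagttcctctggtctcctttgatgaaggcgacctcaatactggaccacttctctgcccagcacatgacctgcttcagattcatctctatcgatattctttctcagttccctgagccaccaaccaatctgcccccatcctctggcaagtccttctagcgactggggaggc
Dclk1, downstream start: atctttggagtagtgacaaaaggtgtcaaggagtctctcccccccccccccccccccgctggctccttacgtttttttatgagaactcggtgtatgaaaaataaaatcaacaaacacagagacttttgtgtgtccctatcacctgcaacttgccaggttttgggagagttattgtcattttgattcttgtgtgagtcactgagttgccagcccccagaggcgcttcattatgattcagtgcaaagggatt
Avil: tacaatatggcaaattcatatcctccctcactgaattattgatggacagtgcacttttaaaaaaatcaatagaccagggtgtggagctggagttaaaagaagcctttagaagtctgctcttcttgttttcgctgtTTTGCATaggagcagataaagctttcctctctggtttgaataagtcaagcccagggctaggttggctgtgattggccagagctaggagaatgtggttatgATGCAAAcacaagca
The AU-rich heptamer TATTTAT, a core of the elements that TTP binds, was searched in the 3′ UTR of the longest coding transcript of each gene. It was found in 0 of the 8 members, including the 5334 bases of the 3′ UTR of Dclk1, against 27.9% of 20071 genes with a 3′ UTR.

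The levels of the members differed widely. Compared per kilobase of transcript, Avil averaged 99.1 CPM per kilobase over the 16 libraries, Ptgs1 7.12, Trpm5 5.22, Dclk1 4.51, Gnat3 1.93, Pou2f3 1.84 and Il25 0.189. Avil was 13.9 times as high as the next gene, Ptgs1, and higher than it in 16 of 16 libraries. Ptgs1 stood above Trpm5 in 15 of 16 libraries and Trpm5 above Dclk1 in 15 of 16, although the ranges of each pair over all libraries overlapped. Gnat3 and Pou2f3 could not be ordered, with Gnat3 higher in 11 of 16 libraries. Which cells the Avil reads came from was not tested. The exons of Avil overlap those of Tsfm on the opposite strand, and Tsfm had 323 to 512 counts where Avil had 5267 to 10515. The exons of Trpm5 overlap those of Tssc4 in the same way, and here both genes had counts of like size, 295 to 792 for Trpm5 and 316 to 611 for Tssc4. Tssc4 differed by 0.24 ± 0.10 in WT-A against WT-S (edgeR adjusted p = 0.108) and by 0.23 ± 0.10 in TTP-A against TTP-S (0.284), beside 0.44 and 0.31 for Trpm5, and the part of shared reads in the values of Trpm5 was not tested. Dclk1 overlaps Gm21954 and Gm42609, and Ptgs1 overlaps Gm43621. Whether the counting used strand is not given in the sources used here, so reads in the overlaps could have been given to either gene.

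**Figure D1:**
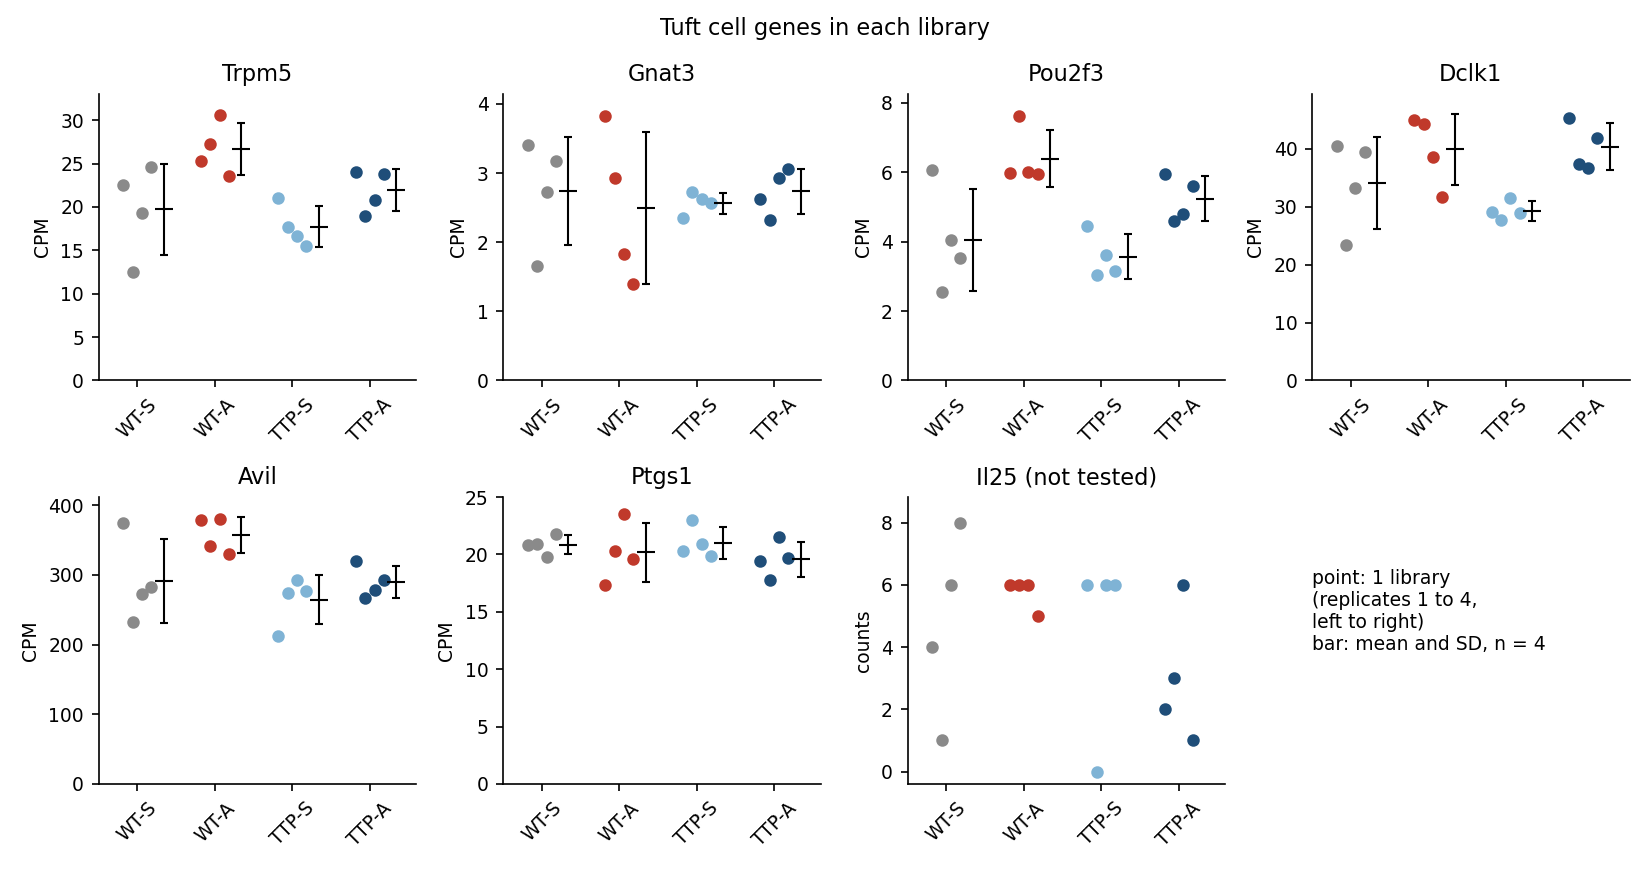
CPM of the 6 tested tuft cell genes and counts of Il25 (y axis, from 0) in each library, by group (x axis). Points are libraries, and bars show the mean and SD of 4 libraries. Pou2f3 and Dclk1 in TTP-A lie above every TTP-S library, Ptgs1 stays between 17.3 and 23.5 CPM throughout, and Il25 has at most 8 counts.

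Among the 6 tested members, Pou2f3 was the 1 gene that passed the test between A and S in wild-type mice, and it was higher in WT-A. The WT-S libraries (replicates 1 to 4) were at 6.05, 2.54, 4.05 and 3.53 CPM, and the WT-A libraries were at 5.99, 7.62, 6.01 and 5.96 CPM. The WT-A libraries lay close together apart from replicate 2, and the groups overlapped through WT-S 1, which was above 3 of the 4 WT-A libraries. The difference was 0.67 ± 0.20 on the log2 scale (estimate ± SE, n = 4 per group), 1.59-fold, with an adjusted p of 0.0333 in edgeR's quasi-likelihood test, adjusted by Benjamini-Hochberg over 15385 genes. A gene with an adjusted p under 0.05 is referred to as called. In this contrast 18.8% of all genes tested were called and 9.8% were called higher in WT-A, so that 1 of 6 members is a share near the background.

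The call of Pou2f3 was not stable. It was lost when WT-A 2 (adjusted p = 0.0638), WT-A 3 (0.0639), WT-S 2 (0.0990), WT-S 3 (0.0665) or WT-S 4 (0.0875) was left out, in the fit of only these 2 groups (0.126) and without both WT-A 3 and WT-A 4 (0.0626), with log2 differences from 0.50 to 0.92 over all alternatives. Pou2f3 is also known from stratified squamous epithelium, and WT-A 2, the library with its highest level, had the highest squamous sum, 1000 CPM. The other WT-A libraries had squamous sums of 50.5, 591 and 63.2 CPM at nearly equal Pou2f3, and WT-S 1 had 3.58 CPM of squamous markers at the highest Pou2f3 of its group. The part of squamous tissue in the Pou2f3 difference was not tested.

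Trpm5, the cation channel that depolarises the tuft cell after calcium release, did not pass the test. WT-S libraries held 22.5, 12.5, 19.3 and 24.6 CPM of it, and WT-A libraries 25.3, 27.3, 30.6 and 23.6 CPM. Only WT-S 4 reached into the range of WT-A. The log2 difference was 0.44 ± 0.16 with an adjusted p of 0.0658 in edgeR, and it passed in DESeq2 (0.0469) and without WT-S 4 (0.0427).

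Avil encodes advillin, an actin-binding protein of the villin family that marks tuft cells. Its WT-S libraries were at 375, 233, 272 and 282 CPM and its WT-A libraries at 379, 342, 380 and 330 CPM. Only WT-S 1 overlapped with WT-A. The log2 difference of 0.30 ± 0.12 had an adjusted p of 0.0943 in edgeR, and 0.0104 with WT-S 1 left out.

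Dclk1, a microtubule-associated kinase widely used as a tuft cell marker, had WT-S levels of 40.5, 23.3, 33.2 and 39.4 CPM, which overlapped with its WT-A levels of 44.9, 44.3, 38.6 and 31.7 CPM. Its log2 difference was 0.23 ± 0.14 (edgeR adjusted p = 0.257).

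Gnat3 encodes gustducin, the taste-type G protein alpha subunit. The WT-S levels were 3.41, 1.65, 2.73 and 3.17 CPM, and those of WT-A 3.83, 2.93, 1.83 and 1.39 CPM, the group with its widest spread. Its log2 difference was -0.12 ± 0.27 (edgeR adjusted p = 0.772), and without WT-A 3 and WT-A 4, the libraries with its lowest WT-A levels, it was 0.31.

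Ptgs1 encodes cyclooxygenase-1, which makes the prostaglandin precursor and is expressed in many cell types besides tuft cells. Levels in WT-S were 20.8, 20.9, 19.8 and 21.8 CPM, within the range of the WT-A levels of 17.3, 20.3, 23.5 and 19.6 CPM. The log2 difference was -0.05, with an interval of 1.96 SE from -0.21 to 0.12 and an edgeR adjusted p of 0.726. In all, 4 of the 6 members had positive log2 differences, with a median of 0.26, where 51.4% of all genes were positive with a median of 0.01. For 0 of 6 did every WT-A library lie above every WT-S library, against 9.2% of all genes. In a bulk biopsy more tuft cells and more RNA per tuft cell cannot be told apart.

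In TTPΔARE mice, Dclk1 and Pou2f3 were higher in every TTP-A library than in any TTP-S library, but no member passed the test. Dclk1 was at 29, 27.6, 31.5 and 28.9 CPM in TTP-S and at 45.3, 37.4, 36.6 and 41.9 CPM in TTP-A. TTP-S was the group in which Dclk1 varied least. The log2 difference was 0.46 ± 0.15, 1.38-fold, with an edgeR adjusted p of 0.100 over the same genes. Pou2f3 was at 4.46, 3.05, 3.61 and 3.15 CPM in TTP-S and 5.95, 4.59, 4.80 and 5.6 CPM in TTP-A, a log2 difference of 0.55 ± 0.21 (edgeR adjusted p = 0.181).

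In this contrast 2.9% of all genes were called, 1.55% were called higher, and in 6.94% every TTP-A library lay above every TTP-S library, as it did in 2 of the 6 members. The members' 0 calls in edgeR stand beside 2 with an unadjusted p under 0.05, Dclk1 and Pou2f3. Dclk1 was called by DESeq2 (adjusted p = 0.0457), and both were called in edgeR when only the 2 groups were fitted (0.00708 for Dclk1 and 0.0482 for Pou2f3). That fit takes the spread from the 8 TTPΔARE libraries alone and called 8.05% of all genes, and DESeq2 called 3.42% of the table. No single library left out gave a call of either gene.

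Trpm5 was at 21.0, 17.7, 16.7 and 15.5 CPM in TTP-S and 24.0, 19.0, 20.8 and 23.8 CPM in TTP-A, a log2 difference of 0.31 ± 0.16 (edgeR adjusted p = 0.391). TTP-S 1 was the library that overlapped with TTP-A. Avil was at 213, 274, 293 and 277 CPM against 320, 267, 278 and 293 CPM, with a log2 difference of 0.13 ± 0.12 (edgeR adjusted p = 0.709). Gnat3 lay between 2.32 and 3.06 CPM in all 8 TTPΔARE libraries and differed by 0.10 ± 0.27 on the log2 scale. Ptgs1 lay between 17.8 and 23.0 CPM and differed by -0.10, with an interval of 1.96 SE from -0.27 to 0.07. In all, 5 of 6 members had positive log2 differences, with a median of 0.22, where 49.7% of all genes were positive with a median of -0.001.

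**Figure D2:**
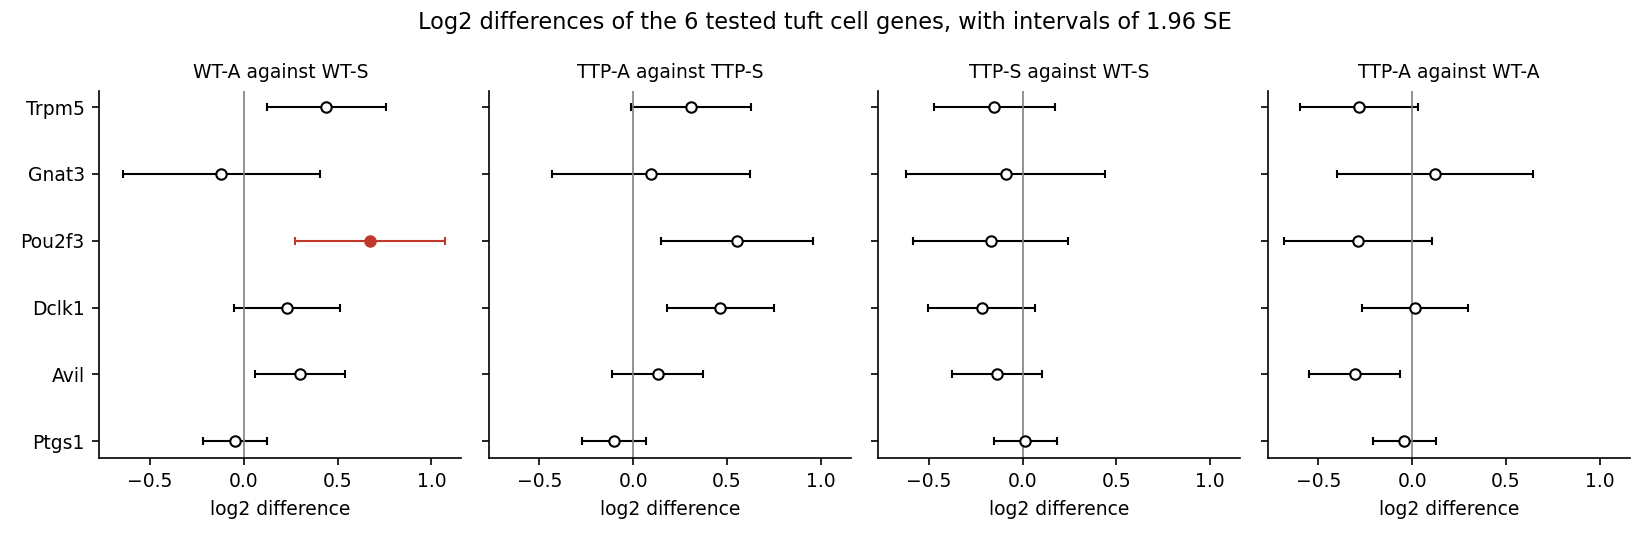
Log2 differences (x axis) of the 6 tested tuft cell genes (y axis) in 4 contrasts; bars are 1.96 SE on either side and a filled red point marks a gene with an adjusted p under 0.05. Pou2f3 in WT-A against WT-S is the filled point, at 0.67, and the intervals of Ptgs1 cross 0 in every contrast.

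Between genotypes, no member was called in either condition. In TTP-S against WT-S, 5 of 6 members had negative log2 differences, from -0.22 for Dclk1 to -0.09 for Gnat3, and Ptgs1 was at 0.01. None had an unadjusted p under 0.05 in edgeR and none was called by DESeq2, in a contrast in which 0.0325% of all genes were called. The WT-S libraries spanned the range of TTP-S for 4 of these genes, Trpm5, Gnat3, Pou2f3 and Dclk1.

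In TTP-A against WT-A, every TTP-A library was below every WT-A library for Pou2f3 and Avil. The TTP-A range of Pou2f3 ended at 5.95 CPM where that of WT-A began at 5.96, and its log2 difference was -0.29 ± 0.20 (edgeR adjusted p = 0.356). Avil reached 320 CPM in TTP-A and began at 330 CPM in WT-A, with a log2 difference of -0.31 ± 0.12 (adjusted p = 0.131) and the only unadjusted p under 0.05 among the members. Groups separated in this direction in 6.22% of all genes, and 5.17% were called in either direction against 0 of 6 members in edgeR and 0 in DESeq2. The other differences were -0.28 for Trpm5, 0.12 for Gnat3, 0.01 for Dclk1 and -0.04 for Ptgs1. The contrasts of A with S and of the genotypes share libraries, so their directions are not independent of each other.

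Whether the difference between A and S differed between genotypes was tested as an interaction, in which 0.0585% of all genes were called. No member was, in edgeR or DESeq2, and none had an unadjusted p under 0.05. The estimates were 0.23 for Dclk1 (interval of 1.96 SE from -0.17 to 0.64), -0.12 for Pou2f3 (-0.69 to 0.45), -0.13 for Trpm5 (-0.58 to 0.32), -0.17 for Avil (-0.51 to 0.17), 0.21 for Gnat3 (-0.53 to 0.96) and -0.06 for Ptgs1 (-0.29 to 0.18) on the log2 scale. These intervals do not show that the genotypes responded alike.

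Il25 encodes the tuft cell cytokine that starts the type 2 circuit. It had 4, 1, 6 and 8 counts in WT-S, 6, 6, 6 and 5 in WT-A, 6, 0, 6 and 6 in TTP-S and 2, 3, 6 and 1 in TTP-A, and 72 over all 16 libraries. No difference was readable at this depth. In the library at 0, TTP-S 2, the count of 0 allows up to 3 counts, and 5 libraries had 3 or fewer. Counts carry no molecular identifiers, so this limit covers counting error only.

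From biopsy to biopsy within a group, Trpm5, Gnat3, Pou2f3, Dclk1 and Avil had positive correlations with each other, although no pair passed its test. After the group mean was subtracted from log2 CPM, WT-S 2 was low in each of these 5, by 0.61 for Trpm5, 0.65 for Gnat3, 0.58 for Pou2f3, 0.52 for Dclk1 and 0.30 for Avil, while its Ptgs1 lay at 0.01. WT-S 1 was high in the same 5 genes, from 0.23 for Trpm5 to 0.64 for Pou2f3. Over 16 libraries the 10 pairs among these 5 genes had Pearson r from 0.40 to 0.83, and the 5 pairs with Ptgs1 had r from -0.20 to 0.29. By permutation of libraries within groups (two-sided, 100000 permutations, n = 16), 0 of the 15 pairs passed after Benjamini-Hochberg adjustment and 4 had an unadjusted p under 0.05.

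The closest pair was Gnat3 and Dclk1, with r = 0.83 (permutation p = 0.00345, adjusted 0.0517) and Spearman rho = 0.73 (permutation p = 0.0153, adjusted 0.0912). Without the 2 libraries farthest from the median of Gnat3, WT-S 2 and WT-A 4, r was 0.63. Trpm5 and Dclk1 had r = 0.77 (permutation p = 0.0144, adjusted 0.108) and rho = 0.62 (permutation p = 0.0277, adjusted 0.0912), and r = 0.49 without WT-S 2 and WT-S 4. Without the farthest 2 libraries of each pair, the 10 values ran from -0.31 for Pou2f3 and Avil to 0.72 for Trpm5 and Pou2f3, so the shared deviation rests in part on the WT-S libraries. Lists of genes deviated with them, given as a description over the same 16 libraries with list means centred alike. The group-centred log2 level of Dclk1 had r = 0.90 with other genes known from tuft cells, 0.85 with the type 2 circuit and 0.83 with eicosanoid synthesis. It had r = 0.74 with simple epithelium, 0.72 with mast cells and -0.88 with the endocrine list. The members differed: with the other tuft genes and with simple epithelium, Trpm5 had r = 0.84 and 0.46, and Avil 0.59 and 0.76. The part of other cells in the shared deviation was not tested.

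**Figure D3:**
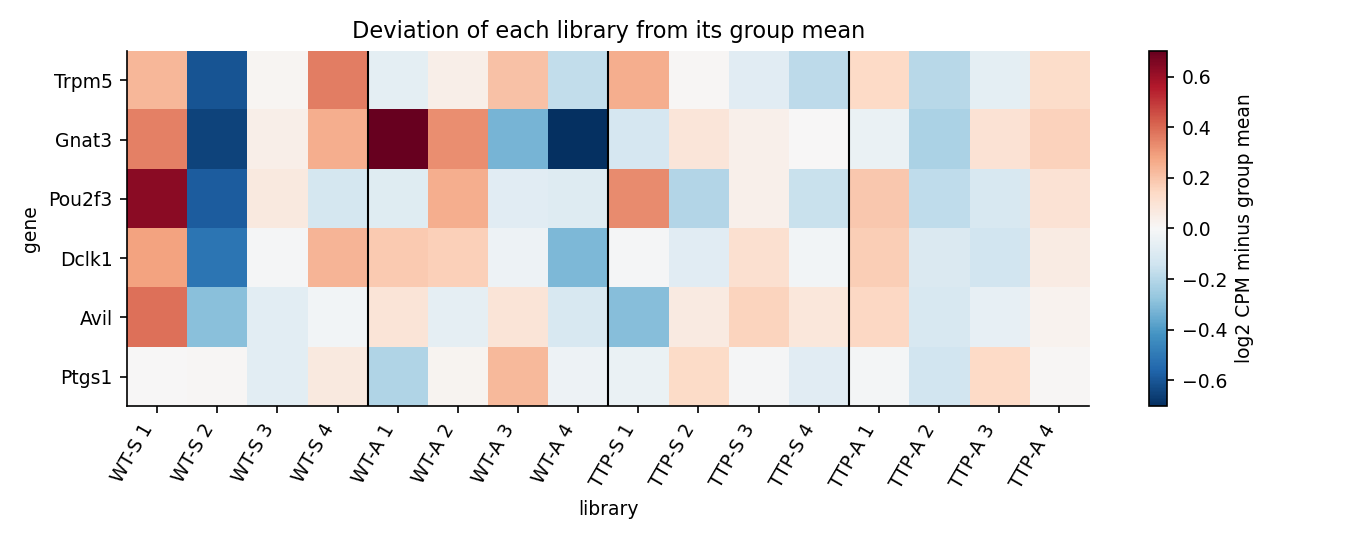
Log2 CPM minus the group mean (colour) for the 6 tested genes (rows) in 16 libraries (columns, groups divided by lines). WT-S 2 is low in 5 genes and near 0 in Ptgs1, and Gnat3 runs from 0.70 in WT-A 1 to -0.70 in WT-A 4.

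The genes nearest to each member over the 16 libraries were taken from the 13893 other genes with a mean of at least 1 CPM, by Pearson r of log2 CPM with the group means left in, as a description. Among the 3 nearest to Trpm5 were Amdhd2 (r = 0.924) and Alox5ap (0.918), which was on the list of other tuft genes. Nearest to Dclk1 were Siglecf (0.930), also on that list, Fermt1 (0.928) and Strip2 (0.926). Pou2f3 was closest to Cxcr4 (0.948), Sprr2b (0.944), a cornified envelope gene, and Ckap4 (0.938). Avil was closest to Mlph (0.945), Syk (0.941) and H2-Q4 (0.929), and Gnat3 to Sec61a2 (0.910), Zc4h2 (0.896) and Dazap2 (0.892). Ptgs1 had no neighbour as close, with Mamstr (0.844), Dnajb12 (0.750) and Acp6 (0.712). None of the members was among the 3 nearest genes of another.

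Of 41 other genes known from tuft cells, 38 were tested, and those that changed between A and S were higher in A. In WT-A, 13 rose and 0 fell (34.2% of the list, against 18.8% of all genes called and 9.8% called higher). The median log2 difference was 0.43, and 31 of 38 were positive. Among the largest were Gng13, the G protein gamma subunit that pairs with gustducin (1.17 ± 0.29, edgeR adjusted p = 0.0144), the kinase Matk (1.09 ± 0.25, 0.0101) and Alox5ap, the 5-lipoxygenase-activating protein of leukotriene synthesis (0.72 ± 0.22, 0.0358). Also called were Pik3r5, Spib, Inpp5d, Vav1, Plcb2, Ltc4s, Lrmp, Sox9 and Tmem176a. The share called was not particular to tuft genes: it was 50% for endothelium, 50% for leukocyte, 40% for fibroblast and 37.5% for simple epithelium genes. Shares were lower for neuron and glia (22.2%), endocrine (20%), squamous (12.5%) and mast cell genes (0%).

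In TTP-A, 5 of the 38 rose and 0 fell (13.2%, against 2.9% of all genes called and 1.55% called higher), with a median of 0.42 and 35 of 38 positive. They were Siglecf (1.22 ± 0.30, edgeR adjusted p = 0.0417), the transcription factor Spib (0.74 ± 0.17, 0.0294), the signalling protein Vav1 (0.70 ± 0.15, 0.0267), the phosphoinositide 3-kinase subunit Pik3r5 (0.54 ± 0.13, 0.0387) and Sox9. Spib, Vav1, Pik3r5 and Sox9 were called in both genotypes, 30.8% of the WT calls and 80.0% of the TTP calls, and 31 of the 38 genes were higher in A in both. Over all genes tested, 218 were called in both genotypes in the same direction, 7.54% of the WT calls and 48.9% of the TTP calls, and 32.1% were higher in A in both. The difference of the list from these shares was not tested. No gene of the list was called by edgeR in the interaction (3 had an unadjusted p under 0.05, and DESeq2 called 0), in TTP-S against WT-S (6 unadjusted, DESeq2 0) or in TTP-A against WT-A (9 unadjusted, DESeq2 1). The share of all genes with an unadjusted p under 0.05 was not counted in any contrast.

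The counts moved with single libraries, as did those over all genes. The 13 calls in WT, where 18.8% of all genes were called, became 6 without WT-A 3 (8.23% of all genes), 8 without WT-S 2 (8.11%), 8 in the 14 libraries (10.4%), 4 when only the 2 groups were fitted (4.49%) and 17 in DESeq2 (13.9% of all genes in the table). Gng13 lost its call in the 14 libraries (0.79, adjusted p = 0.131), with only the 2 groups fitted (0.0678) and without WT-S 2 (0.0539). Alox5ap lost its call in the 14 libraries (0.0882), with only the 2 groups fitted (0.103) and without WT-A 2, WT-A 3, WT-S 2 or WT-S 3 (at most 0.119), while Matk kept its call in both fits and without any 1 library. Siglecf in TTP lost its call without any library but TTP-A 2 (at most 0.15). The 5 calls in TTP, where 2.9% of all genes were called, became 0 without TTP-A 1, TTP-A 4, TTP-S 2, TTP-S 3 or TTP-S 4 (0.387% to 1.07% of all genes), 1 without TTP-S 1 (1.37%), 2 without TTP-A 3 (1.26%) and 14 without TTP-A 2 (6.04%). They were 14 in DESeq2 (3.42% of all genes in the table), 15 with only the 2 groups fitted (8.05%) and 13 in the 14 libraries (6.26%).

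Many of the genes called are known from other cells too. Examples also known from leukocytes are Vav1, Spib, Inpp5d, Pik3r5, Alox5ap, Ltc4s and Siglecf, and Sox9 is known from epithelial progenitors. The cell source of the other called genes, Matk among them, was not tested. Of the list, 5 genes are shared with the taste list and 5 with the eicosanoid list. The summed level of 6 leukocyte markers was 45.5 to 52.2 CPM in WT-S and 66.5 to 87.5 CPM in WT-A, and 41.6 to 56.1 CPM in TTP-S and 61.3 to 78.2 CPM in TTP-A, so that A and S did not overlap in either genotype. The part of leukocytes in the change of these genes was not tested. The sum of the 41 genes themselves was led by Cd24a (53.5%) and Itpr3 (21.9%) and lay at 2840 to 3310 CPM in WT-S and 2530 to 3290 CPM in WT-A.

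**Figure D4:**
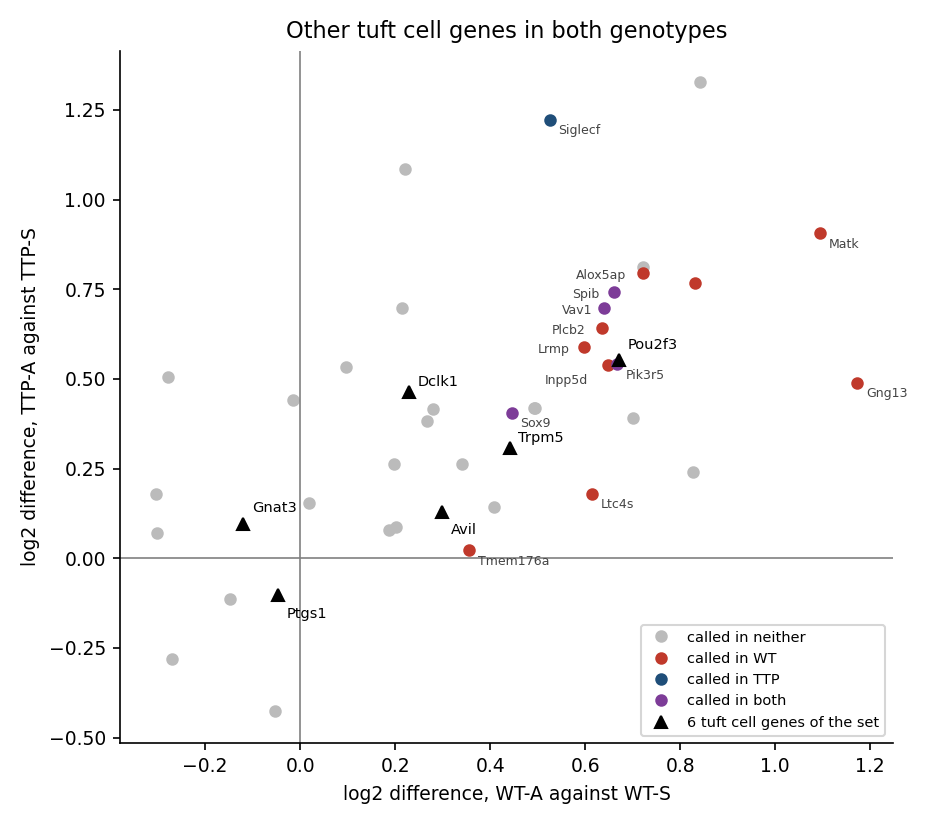
Log2 differences of 38 other tuft cell genes (circles) in WT (x axis) and TTPΔARE mice (y axis), coloured by where the adjusted p was under 0.05, with the 6 members as black triangles. Both differences are positive for 31 of the 38 genes, and Pou2f3 lies among the genes called in WT while Gnat3 and Ptgs1 lie near 0 on both axes.

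Of the list of other tuft genes, 6 were named for all contrasts whatever their change. Alox5ap was called in WT-A against WT-S, as given above. Chat, Gfi1b, Il17rb and Hpgds were not called by edgeR in any contrast, and Sucnr1 was not tested. Chat, which makes acetylcholine, had 4 to 22 counts in a library, and its group means ran from 0.377 ± 0.107 CPM in WT-S to 0.619 ± 0.335 CPM in TTP-A (SD, n = 4). Gfi1b, a tuft cell transcription factor, was at 0.858 ± 0.297 and 0.987 ± 0.131 CPM in WT-S and WT-A and at 0.464 ± 0.246 and 1.01 ± 0.161 CPM in TTP-S and TTP-A (SD, n = 4), and its log2 difference of 1.09 ± 0.33 in TTP-A against TTP-S had an edgeR adjusted p of 0.0865. Il17rb, the IL-25 receptor subunit that tuft cells also carry, differed by 0.70 ± 0.24 in WT-A against WT-S (edgeR adjusted p = 0.0558). Hpgds, the prostaglandin D2 synthase, differed by 0.10 ± 0.25 in the same contrast and by 0.53 ± 0.25 in TTP-A against TTP-S (edgeR adjusted p = 0.804 and 0.318). Sucnr1, the succinate receptor by which intestinal tuft cells sense microbial metabolites, had 0 to 3 counts in a library and was not readable.

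The taste-type signalling list runs from receptor to channel. Of its 13 genes, 12 had a row and 9 were tested. In WT-A, 3 rose: Gng13, Plcb2, the phospholipase C isoform of taste transduction (0.64 ± 0.18, edgeR adjusted p = 0.0281), and Gnb1, a widely expressed G protein beta subunit (0.15 ± 0.05, 0.0415). These 3 of 9 are 33.3% of the list, where 18.8% of all genes were called and 9.8% were called higher. Plcb2 lost its call without WT-A 2, WT-A 3, WT-S 2 or WT-S 3, and Gnb1 without WT-A 1, WT-A 3, WT-S 2, WT-S 3 or WT-S 4, without the filter on low counts (adjusted p = 0.0634) and with DESeq2 size factors (0.0509). Both also lost it in the 14 libraries (0.0714 for Plcb2, 0.0518 for Gnb1) and with only the 2 groups fitted (0.0858 and 0.201). In TTP-A against TTP-S none was called by edgeR, and Plcb2 differed by 0.64 ± 0.19 (edgeR adjusted p = 0.0787). The receptor subunit gene Tas1r2 and the ATP channel gene Calhm1 were at or under 3 counts in every library.

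Among genes of the type 2 circuit, Il13, the cytokine that acts on epithelium, rose in A in both genotypes. Of 16 tested genes of the list, 7 rose in WT-A and 0 fell, and 13 of 16 had positive log2 differences. The called share was 43.8%, against 18.8% of all genes called and 9.8% called higher. Il13 and Il5 had at most 6 counts in any S library and passed the filter on low counts through the A libraries. Their entry among the tested genes and their direction were thus linked in advance. Il13 averaged 0.103 ± 0.0852 CPM over the WT-S and 0.888 ± 0.217 CPM over the WT-A libraries (SD, n = 4), with 1 to 4 counts in a WT-S library and 19 to 31 in a WT-A library, and a log2 difference of 3.12 ± 0.45 (edgeR adjusted p = 0.00115). Retnla, a secreted product of alternatively activated macrophages, rose by 2.07 ± 0.54, with overlap between the groups. Il5, the eosinophil growth factor, rose by 1.89 ± 0.55, at low counts of 0 to 6 in a WT-S and 9 to 16 in a WT-A library. Clca1, Crlf2 and Il4ra were also called.

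In TTP-A, Il13 rose by 2.58 ± 0.47 (edgeR adjusted p = 0.0128) and Clca1, a goblet cell product induced by IL-13, by 2.35 ± 0.60 (0.0484), 2 of the 16 (12.5% against 2.9% of all genes). Il13 had 1 to 3 counts in a TTP-S library and 8 to 17 in a TTP-A library. The call of Il13 in TTP-A was lost without TTP-A 1 or TTP-S 4, with adjusted p of at most 0.0568, and that of Clca1 was lost without any library but TTP-A 2. In WT, Il13 kept its call without any 1 library, Retnla lost its call when WT-S 2, WT-S 3, WT-S 4 or WT-A 3 was left out and with only the 2 groups fitted (0.0686), and Il5 without WT-S 2, WT-S 4 or WT-A 3 and in the 14 libraries (0.0813). Mast cells, another source of type 2 cytokines, had summed markers of 145 to 483 CPM in WT-S, 234 to 681 CPM in WT-A, 142 to 154 CPM in TTP-S and 196 to 526 CPM in TTP-A, and their part in these differences was not tested. Il9 and Retnlb were at or under 3 counts in every library.

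Tuft cells are a source of prostaglandins and leukotrienes, and Ptgs1 is the member that stands in this pathway. Of 15 tested eicosanoid genes, 3 rose in WT-A, Ptgds (0.77 ± 0.26, edgeR adjusted p = 0.0494), Alox5ap and the leukotriene C4 synthase Ltc4s (0.62 ± 0.20, 0.0458), and 1 fell. The 4 called genes are 26.7% of the list against 18.8% of all genes, a share near the background. The gene that fell, Hpgd, which inactivates prostaglandins, fell by 0.96 ± 0.20 on the log2 scale (edgeR adjusted p = 0.00550), from 234 ± 34.7 CPM in WT-S to 119.9 ± 39.95 CPM in WT-A (SD, n = 4). Hpgd also fell in TTP-A, by 0.79 ± 0.19 (0.0427), without overlap between the groups in either genotype. Ptgs2, the inducible cyclooxygenase, was higher in TTP-A than in WT-A by 0.95 ± 0.22 (edgeR adjusted p = 0.0271), with 5.04 to 6.96 CPM against 2.50 to 3.97 CPM, while its relative Ptgs1 differed by -0.04.

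Hpgd kept its call in WT without any 1 library. In TTP it lost the call without any library but TTP-A 2 (adjusted p at most 0.169). Ptgs2 lost its call without TTP-A 2, TTP-A 3, TTP-A 4 or WT-A 3 (at most 0.0925), in the 14 libraries (0.82, adjusted p = 0.115) and with only the 2 groups fitted (0.0792), a fit that called 1 gene in all. Ltc4s lost its call without WT-A 2, WT-A 3, WT-A 4, WT-S 2 or WT-S 3 (at most 0.123), in the 14 libraries (0.169), with only the 2 groups fitted (0.166) and without the filter on low counts (0.0514). Ptgds lost its call without any library but WT-A 3 (at most 0.111), where it lay at the threshold, with only the 2 groups fitted (0.0938), without the filter on low counts (0.0587) and with DESeq2 size factors (0.051).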

How the data were processed

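What the authors deposited is a single table of read counts, as whole numbers, with a row for each gene symbol and a column for each of 16 libraries. Per the submitters' processing notes, STAR 2.7.0f, featureCounts of Subread 1.6.4, DESeq2 and the build mm10 were used. The annotation, the strand setting and any filter are not given in the sources used here. Per the labels' protocols, RNA was extracted in TRIzol and sequenced as Illumina TruSeq libraries. The sample titles gave the group and the replicate number of each library.

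The unmodified counts went into edgeR 4.0.16 (R 4.3.3): filterByExpr, which kept 15385 genes, TMM scaling, and a quasi-likelihood fit with 4 group means over 16 libraries, tested on simulated data. CPM are relative to the TMM-scaled library total. Log2 values for correlations used a prior count of 2. SEs were derived from each log2 difference and its F statistic. Transcript lengths, coordinates and UTRs came from the longest coding transcript of GENCODE M21 on mm10, and promoters from RefSeq (GRCm38.p6). Alternatives were DESeq2 1.42.0, its size factors, other filters on low counts, only the groups compared, a replicate block, 14 libraries and each library left out. The alternatives for the list of other tuft genes were added after its values were seen. Replicate numbers were not used to pair libraries in the main fit. Any 2 libraries of a group (24 pairs) differed beyond sampling noise (lowest chi-square over its degrees of freedom 4.69). This tells them apart from 1 library sequenced again, and not from samples of the same animal. Each library was counted as 1 replicate.

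The 8 genes and all lists were chosen with earlier results of these data known. Named were the 8 genes, called list genes (at most 4 per list and contrast, by the size of the log2 difference), 6 tuft markers fixed by name, Zfp36 and the 3 nearest genes of each tested member. Of the genes this rule names, 2 are not reported here. Others named (Sox9, Cd24a, Itpr3, Tas1r2, Calhm1, Il9, Retnlb, the overlapping genes, and the remaining genes behind a count of calls) were chosen after their values were seen. In WT-A against WT-S, where 18.8% of all genes were called, the calls were 2 of 9 neuron and glia genes (22.2%), 2 of 5 fibroblast (40%), 2 of 4 endothelium (50%), 2 of 4 leukocyte (50%), 1 of 5 endocrine (20%), 1 of 8 squamous (12.5%), 3 of 8 simple epithelium (37.5%) and 0 of 8 mast cell genes, shares that reach or pass the 34.2% of the other tuft genes in 4 of these lists. In TTP-A against TTP-S, where 2.9% were called, they were 3 of 8 mast cell genes (37.5%), 1 of 5 fibroblast (20%) and 1 of 4 leukocyte genes (25%), and 0 in the other 5 lists, against 13.2% of the other tuft genes.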

Additional observations from a re-analysis of the deposited data

Results flagged for a closer look

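Pou2f3 in WT-A 2 was at 7.62 CPM, far from the other 3 WT-A libraries (5.96 to 6.01 CPM). Its gap to the nearest library was 0.97 of the range of the group, above Dixon's critical value for 4 samples. Of 28 groups checked (7 genes in 4 groups), 1 stood apart in this way, where chance gives about 1 in 20. WT-A 2 also had the highest summed level of squamous markers, 1000 CPM, and the part of squamous tissue was not tested.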

How the results depend on the processing

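Of 492 alternative values of the members' log2 differences, 454 kept their direction and side of the threshold, 6 passed it, 7 no longer did and 25 changed sign, and of 310 for the list genes named, 203 kept both, 107 no longer passed and 0 changed sign; the cause was not tested. The 1 member called in WT-A against WT-S became 2 in DESeq2, 0 with only the groups compared, 0 in the 14 libraries and 0 to 2 with 1 library left out, and the 0 in TTP-A against TTP-S became 1 in DESeq2 and 2 with only the groups compared. The share of all genes called moved too, in WT from 18.8% to 13.9% in DESeq2 (of all genes in the table), 4.49% with only the groups compared, 10.4% in the 14 libraries and 8.11% to 32.2% with 1 library left out, and in TTP from 2.9% to 3.42%, 8.05%, 6.26% and 0.387% to 6.04%. The 13 other tuft genes in WT became 17 in DESeq2, 4 with only the groups compared, 8 in the 14 libraries and 6 to 15 with 1 library left out. The 5 in TTP became 14 in DESeq2, 15, 13 and 0 to 14 in the same order. The 0 in TTP-A against WT-A became 1 in DESeq2 (6.53% of the table, against 5.17% of all genes tested), 1 with the replicate block (4.06%) and 0 to 3 with 1 library left out (0.557% to 20.7%), where 0.00665% of all genes (1 gene) were called with only the groups compared and 1.87% in the 14 libraries, and the 0 in the interaction 0 to 1. The libraries of a number deviated together with r from -0.49 to 0.35, so the numbers do not pair them, and the replicate block changed no member's call (Pou2f3 in WT 0.72, adjusted p = 0.0243), while of the list genes named, adjusted p with it was 0.0524 for Siglecf and 0.0597 for Clca1 in TTP and 0.0526 for Ltc4s and 0.0826 for Ptgds in WT. In the 14 libraries the sign changed for Gnat3 in WT (0.31), in TTP-A against WT-A (-0.30) and in the interaction (-0.21), for Dclk1 in TTP-A against WT-A (-0.15), and for Ptgs1 in TTP-A against WT-A (0.058) and the interaction (0.043). The r of Pou2f3 and Avil without the 2 farthest libraries was -0.31. With 1 library left out, signs changed within these ranges: in WT-A against WT-S, Gnat3 -0.40 to 0.075 and Ptgs1 -0.13 to 0.021; in TTP-S against WT-S, Gnat3 -0.28 to 0.029, Pou2f3 -0.34 to 0.082, Avil -0.23 to 0.0096 and Ptgs1 -0.033 to 0.040; in TTP-A against WT-A, Gnat3 -0.070 to 0.40, Dclk1 -0.080 to 0.075 and Ptgs1 -0.11 to 0.039; in the interaction, Trpm5 -0.26 to 0.034, Pou2f3 -0.37 to 0.052 and Ptgs1 -0.12 to 0.025. DESeq2 size factors moved the median of all genes by at most 0.01 (log2). Depth limits Il25, Sucnr1, Chat, Il5 and, in the S groups, Il13.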
